A study of Mus musculus with 24 samples.

Results

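Transforming growth factor beta (TGF-beta) signalling was represented by 9 of the 547 genes of the NanoString nCounter mouse immunology panel, which were taken from the table by name. They were the ligands Tgfb1, Tgfb2 and Tgfb3, the receptors Tgfbr1 and Tgfbr2, the intracellular mediators Smad3 and Smad5, the repressor Ski, and Tgfbi, a matrix protein named for its induction by TGF-beta. All 9 were present in the table and had a count above 0 in every mouse. RNA came from the terminal ileum, the end of the small intestine, of 24 C57BL/6 mice of both sexes at week 7. The 7 Control mice (4 males, 3 females) received no antibiotic. The 7 PAT1 mice (4 males, 3 females) had 1 course of tylosin, a macrolide antibiotic, through the milk of their treated dam. The 10 PAT3 mice (4 males, 6 females) had the same early course and further courses later in life, 3 in all. PAT stands for pulsed antibiotic treatment, and the comparisons ask whether a single early course, and repeated courses, left a difference in the ileum. Whole litters were assigned to a treatment and cages held mice of 1 sex and treatment, so that litter, cage and treatment cannot be told apart.

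TGF-beta ligands are secreted in a latent form. Once released, a ligand binds the type II receptor (Tgfbr2), which recruits and phosphorylates the type I receptor (Tgfbr1). Tgfbr1 phosphorylates Smad3, which enters the nucleus and acts on target genes, whereas Smad5 mainly carries the signal of the related bone morphogenetic proteins. Ski binds Smad proteins and represses their target genes. In the gut the pathway is known for inducing regulatory T cells and IgA class switching, for restraining effector T cells, and for epithelial repair and matrix production.

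Total counts per sample ranged from 171671 to 782392. Medians were 591962 in Control, 543394 in PAT1 and 598241 in PAT3, and the test of total counts passed for none of the pairs of groups (two-sided exact permutation tests, p = 0.15, 0.362 and 0.343 for PAT1 against Control, PAT3 against Control and PAT3 against PAT1, adjusted p = 0.362 for each). However, 4 samples held fewer than 400000 counts, namely PAT1 replicates 1 to 3, all male, and PAT3 replicate 7, a female. These stood apart in the genes described here as well: the lowest PAT1 value came from 1 of the 3 shallow PAT1 samples for 8 of the 9 genes, and the lowest PAT3 value came from PAT3 replicate 7 for 7 of the 9. The part of depth in these low values was not tested. Counts of genes called are therefore given with and without these 4 samples, an alternative that was chosen after seeing the data. So are those differences whose call changed in the comparisons with Control or between PAT3 and PAT1, with Smad5 and Tgfbi in PAT1. Without these samples PAT1 held only replicates 4 to 7, of which replicate 4 was the only male, so that its sex make-up changed together with its depth. The 8 listed genes of intestinal epithelium summed to between 96600 and 197000 normalized counts per mouse in Control, 114000 and 189000 in PAT1, and 123000 and 174000 in PAT3. Of these genes, Itln1 had the most counts (median 66807.5 per sample). No other tissue was measured, so the sums do not test the tissue label.

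RefSeq gene starts (assembly GRCm38.p6) were available for 8 of the 9 genes, the exception being Tgfb3, at 11 start sites in all. The 250 bases upstream of each start were searched for the Smad-binding motif CAGAC, which reads GTCTG on the other strand. It was present at 42.2% of all 32851 starts in the table. It was found at 5 of the 11 starts, belonging to 5 genes. Below are 4 of the genes, shown because they differed both in how they varied between groups and in motif content. Tgfbi and Tgfb2 each hold 2 copies, and Smad3 and Tgfb1 hold none. The windows are chr13:56609336-56609585 on the + strand for Tgfbi, chr1:186705990-186706239 on the - strand for Tgfb2, chr9:63757995-63758244 on the - strand for Smad3 and chr7:25686752-25687001 on the + strand for Tgfb1, and each is printed 5′ to 3′ on the strand of its gene with the motif in capitals.
Tgfbi: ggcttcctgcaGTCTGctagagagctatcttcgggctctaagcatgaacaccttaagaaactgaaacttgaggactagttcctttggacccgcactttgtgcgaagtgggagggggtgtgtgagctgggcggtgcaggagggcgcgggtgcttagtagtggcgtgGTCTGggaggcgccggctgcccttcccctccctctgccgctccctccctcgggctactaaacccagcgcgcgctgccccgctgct
Tgfb2: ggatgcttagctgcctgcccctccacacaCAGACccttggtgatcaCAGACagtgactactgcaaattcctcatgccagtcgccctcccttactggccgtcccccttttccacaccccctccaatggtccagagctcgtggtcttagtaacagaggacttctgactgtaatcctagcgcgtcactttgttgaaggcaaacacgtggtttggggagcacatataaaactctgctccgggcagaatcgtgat
Smad3: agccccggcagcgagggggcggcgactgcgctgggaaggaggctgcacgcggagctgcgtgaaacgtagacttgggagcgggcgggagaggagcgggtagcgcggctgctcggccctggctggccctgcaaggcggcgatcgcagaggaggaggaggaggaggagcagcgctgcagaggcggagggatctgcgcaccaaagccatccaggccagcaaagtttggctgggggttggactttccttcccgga
Tgfb1: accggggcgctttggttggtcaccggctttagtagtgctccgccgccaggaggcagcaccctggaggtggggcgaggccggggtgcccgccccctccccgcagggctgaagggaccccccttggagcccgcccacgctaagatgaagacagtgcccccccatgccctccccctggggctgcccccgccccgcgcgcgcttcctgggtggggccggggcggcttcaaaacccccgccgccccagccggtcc
A single copy lay upstream of Tgfbr2, of 1 of the 2 starts of Tgfbr1 and of 1 of the 3 starts of Smad5, and none lay upstream of Ski. The GC box GGGCGG, which reads CCGCCC on the other strand and was present at 32.7% of all starts, was found at 8 of the 11 starts and in 6 of the 8 genes, with 7 copies upstream of 1 start of Smad5, 5 each upstream of Tgfb1 and Ski, and none upstream of Tgfb2 and Tgfbr2. Only Tgfb2 held the TATA box letters TATAAA, which read TTTATA on the other strand and were present at 12.4% of all starts. These windows held 52.8% to 87.6% G and C, against a median of 52.4% over all starts. The 32.7% is therefore not a share for windows of like composition. Of the 3 windows of Smad5, 2 overlap, and the same GC box was counted in both. These are matches of letters in 1 window, and binding was not measured.

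Across the 3 groups, 7 of the 9 genes differed (limma F-test with Benjamini-Hochberg adjustment over all 547 genes), against 34.6% of all genes. The exceptions were Tgfb1 (adjusted p = 0.964) and Ski (adjusted p = 0.0644). Relative to Control, the PAT3 mice had higher levels of 7 genes and lower levels of none, against 31.8% of all genes called in either direction, 13.9% called higher and 17.9% called lower. Relative to Control, the PAT1 mice had higher levels of 2 genes, Tgfbi and Smad5, and lower levels of none, against 18.5% of all genes in either direction, 7.31% higher and 11.2% lower. Between PAT3 and PAT1, 2 genes, Tgfb2 and Tgfb3, were higher in PAT3 and none was lower, against 4.2%, 1.46% and 2.74% of all genes. The median log2 difference over the 9 genes was 0.11 for PAT1 minus Control, 0.51 for PAT3 minus Control and 0.24 for PAT3 minus PAT1, beside 0.01, 0.03 and -0.03 over all genes. Both comparisons with Control share the same 7 Control mice. By the test of the study's methods (analysis of variance with Tukey's post-hoc test, adjusted over all genes), 4 of the 9 genes were called in PAT3 (Tgfbr1, Tgfbr2, Smad3 and Smad5), 0 in PAT1 and 0 between PAT3 and PAT1, beside 138, 73 and 0 of all 547 genes. For none of the 9 genes were the levels of 2 groups free of overlap. Of all 547 genes, 13 (2.38%) in PAT1 and 11 (2.01%) in PAT3 had every mouse above every Control mouse.

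**Figure D1:**
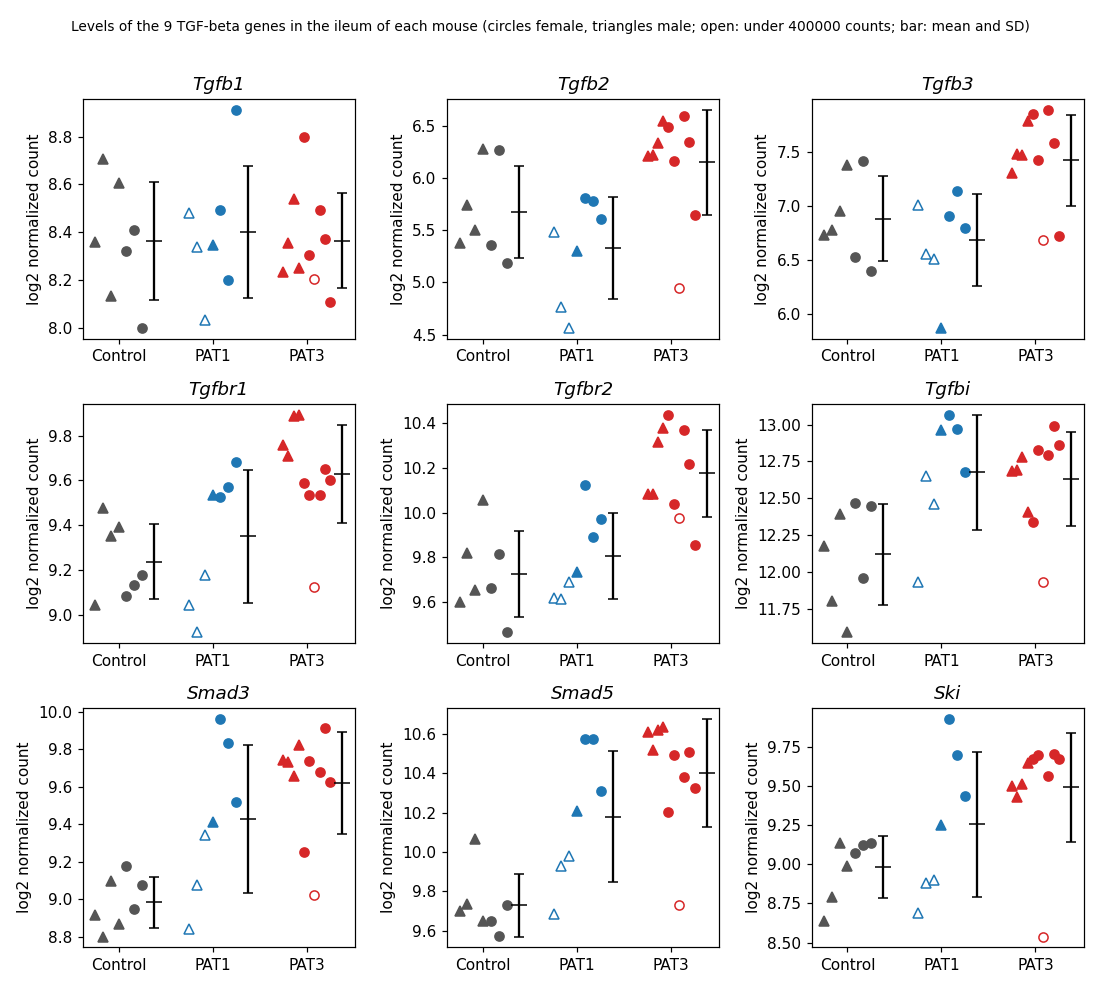
Level of each of the 9 genes in every mouse, as log2 normalized count, by group (Control n = 7, PAT1 n = 7, PAT3 n = 10). Circles are females, triangles are males, open symbols are the 4 samples under 400000 counts, and the bar beside each group is its mean and SD. The open symbols lie low in most panels. For Tgfbr1, Smad3, Smad5 and Ski, PAT3 replicate 7 is the lowest PAT3 mouse and does not lie above Control, while the other 9 PAT3 mice lie above every Control mouse. How many of all genes separate without that mouse was not counted. Tgfb1 shows no shift.

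**Figure D2:**
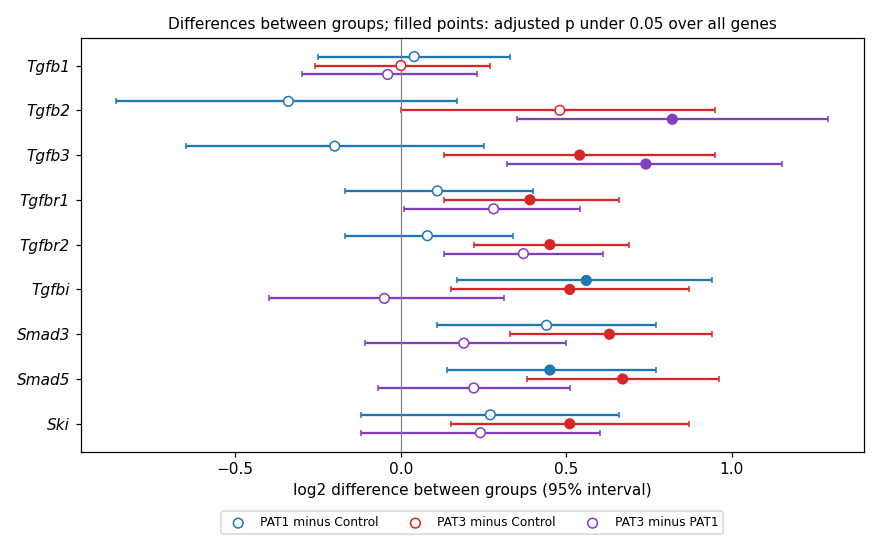
Log2 difference between groups for each of the 9 genes with its 95% interval from the limma fit. Filled points have an adjusted p under 0.05 over all genes: 2 for PAT1 minus Control (Tgfbi, Smad5), 7 for PAT3 minus Control (all but Tgfb1 and Tgfb2), and 2 for PAT3 minus PAT1 (Tgfb2, Tgfb3).

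Among the ligands, Tgfb1, the isoform made by most immune cells, was not called in any comparison, whereas Tgfb3 was higher in PAT3 than in both other groups and Tgfb2 was higher in PAT3 than in PAT1. Levels below are log2 normalized counts. Since each gene has its own probe pair, levels were not compared between genes. Tgfb1 ranged from 8.0 to 8.71 in Control (median 8.36), from 8.03 to 8.91 in PAT1 (median 8.34) and from 8.11 to 8.80 in PAT3 (median 8.33). The 3 groups covered the same range. The difference from Control was 0.04 (95% interval -0.25 to 0.33, adjusted p = 0.897) in PAT1 and 0.00 (95% interval -0.26 to 0.27, adjusted p = 0.985) in PAT3, so a change of more than 1.26-fold up in PAT1 or 1.21-fold up in PAT3 lay outside the intervals.

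Tgfb2, which is made by epithelial and mesenchymal cells, had the fewest counts of the 9 genes. It ranged from 5.19 to 6.27 in Control (median 5.51), from 4.56 to 5.81 in PAT1 (median 5.48) and from 4.95 to 6.59 in PAT3 (median 6.28). Most PAT3 mice were high: 5 of 10 lay above every Control mouse and 8 of 10 above every PAT1 mouse, with PAT3 replicate 7 lowest of its group. Tgfb2 was 1.77-fold higher in PAT3 than in PAT1 (log2 difference 0.82, SE 0.23, adjusted p = 0.0401). The difference from Control was 0.48 (SE 0.23, adjusted p = 0.112) in PAT3 and -0.34 (SE 0.25, adjusted p = 0.383) in PAT1, neither of which passed the threshold. At 13 to 113 counts per mouse, counting error alone amounted to between 10.5% and 15.1% at the median count of a group.

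Tgfb3, the third isoform, ranged from 6.40 to 7.41 in Control (median 6.78), from 5.87 to 7.13 in PAT1 (median 6.79) and from 6.68 to 7.89 in PAT3 (median 7.47). All but 3 PAT3 mice were above the highest Control mouse, and all but PAT3 replicates 7 and 10 were above the highest PAT1 mouse. It was 1.45-fold higher in PAT3 than in Control (log2 difference 0.54, SE 0.20, adjusted p = 0.0432) and 1.67-fold higher than in PAT1 (log2 difference 0.74, SE 0.20, adjusted p = 0.0401), while PAT1 and Control differed by -0.20 (SE 0.22, adjusted p = 0.582). These calls lay close to the threshold. The differences of Tgfb2 and Tgfb3 between PAT3 and PAT1 each lost the call without any one of PAT1 replicates 1, 2, 3, 4 and 7 or PAT3 replicates 1 to 6, 8 and 9, with log2 differences of 0.69 to 0.87 for Tgfb2 and 0.60 to 0.79 for Tgfb3 and adjusted p up to 0.135. Without the 4 shallow samples they were 0.66 (adjusted p = 0.118) and 0.83 (adjusted p = 0.0997). The call of Tgfb3 against Control was lost without any one of Control replicates 1, 2, 3, 5 and 7 or PAT3 replicates 1 to 6, 8 and 9 (log2 difference 0.46 to 0.55, adjusted p 0.0504 to 0.095). Tgfb2 passed the threshold against Control without PAT3 replicate 7 (log2 difference 0.61, adjusted p = 0.0185) and without all 4 shallow samples (0.61, adjusted p = 0.0059).

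Both receptors were higher in PAT3 than in Control, with no call in PAT1. Tgfbr1, the signalling type I receptor, ranged from 9.05 to 9.48 in Control (median 9.18), from 8.92 to 9.68 in PAT1 (median 9.52) and from 9.13 to 9.89 in PAT3 (median 9.63). Every PAT3 mouse except replicate 7 lay above every Control mouse. PAT1 mice fell on both sides: 4 of 7 were above every Control mouse, and the other 3 were the shallow samples. Tgfbr1 was 1.31-fold higher in PAT3 than in Control (log2 difference 0.39, SE 0.13, adjusted p = 0.0217; adjusted p = 0.0508 and a difference of 0.36 without Control replicate 1). In PAT1 the difference was 0.11 (SE 0.14, adjusted p = 0.623), and without the 4 shallow samples it was 0.34 (adjusted p = 0.0255).

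Tgfbr2, the ligand-binding type II receptor, ranged from 9.46 to 10.06 in Control (median 9.66), from 9.61 to 10.12 in PAT1 (median 9.73) and from 9.86 to 10.44 in PAT3 (median 10.15). All 10 PAT3 mice were above the Control mean and 7 of 10 were above the highest Control mouse, whereas the PAT1 and Control ranges largely overlapped. The level was 1.37-fold higher in PAT3 than in Control (log2 difference 0.45, SE 0.11, adjusted p = 0.00383), and PAT1 differed from Control by 0.08 (SE 0.12, adjusted p = 0.712). PAT3 lay above PAT1 by 0.37 (SE 0.11, adjusted p = 0.0562), which passed the threshold without any one of PAT1 replicates 5 and 6 or PAT3 replicates 7 and 10 (log2 difference 0.38 to 0.42, adjusted p 0.0231 to 0.035).

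The Smad genes showed the largest differences from Control among the 9 genes in PAT3, and both were higher in the mean in PAT1. Smad3, the receptor-activated mediator of TGF-beta, ranged from 8.80 to 9.18 in Control (median 8.95), from 8.84 to 9.96 in PAT1 (median 9.41) and from 9.03 to 9.91 in PAT3 (median 9.70). Control mice were tightly grouped, and 9 of 10 PAT3 mice and 5 of 7 PAT1 mice lay above all of them. Smad3 was 1.55-fold higher in PAT3 (log2 difference 0.63, SE 0.15, adjusted p = 0.00187). In PAT1 the difference was 0.44 (SE 0.16, adjusted p = 0.0536), just outside the threshold, which it passed without any one of PAT1 replicates 1 and 2 or PAT3 replicates 5 and 7 (log2 difference 0.44 to 0.54, adjusted p 0.0113 to 0.0474). Without the 4 shallow samples it was 0.70 (adjusted p = 0.000675).

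Smad5, the mediator of bone morphogenetic protein receptors, ranged from 9.57 to 10.07 in Control (median 9.70), from 9.69 to 10.57 in PAT1 (median 10.21) and from 9.73 to 10.64 in PAT3 (median 10.50). Control replicate 3 was the high Control mouse, and PAT3 replicate 7 was the only PAT3 mouse within the Control range. Smad5 was 1.59-fold higher in PAT3 (log2 difference 0.67, SE 0.14, adjusted p = 0.000776) and 1.37-fold higher in PAT1 (log2 difference 0.45, SE 0.15, adjusted p = 0.0393). The PAT1 call was lost without any one of Control replicates 1, 2, 4, 5, 6 and 7 or PAT1 replicates 4 to 7 (log2 difference 0.39 to 0.45, adjusted p 0.0558 to 0.0942), whereas the PAT1 difference was 0.69 (adjusted p = 0.000313) without the 4 shallow samples. PAT3 and PAT1 differed by 0.22 (95% interval -0.07 to 0.51, adjusted p = 0.316) for Smad5 and by 0.19 (95% interval -0.11 to 0.50, adjusted p = 0.423) for Smad3.

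Ski, the repressor that binds Smad proteins, was higher in PAT3 than in Control. It ranged from 8.64 to 9.14 in Control (median 9.07), from 8.69 to 9.93 in PAT1 (median 9.25) and from 8.54 to 9.70 in PAT3 (median 9.60). PAT3 replicate 7 held the lowest value of all 24 mice, and the other 9 PAT3 mice lay above every Control mouse. Ski was 1.42-fold higher in PAT3 than in Control (log2 difference 0.51, SE 0.17, adjusted p = 0.0286), a call lost without Control replicate 1 or 2 (log2 difference 0.45 to 0.48, adjusted p 0.0587 to 0.0705). In PAT1 the difference was 0.27 (SE 0.19, adjusted p = 0.363), and without the 4 shallow samples it was 0.60 (adjusted p = 0.0019).

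Tgfbi, a secreted matrix protein that binds integrins and collagens, was higher by a like amount in both PAT groups. It ranged from 11.59 to 12.47 in Control (median 12.18), from 11.93 to 13.07 in PAT1 (median 12.68) and from 11.93 to 12.99 in PAT3 (median 12.73). Both PAT groups reached above the highest Control mouse, in 5 of 7 PAT1 and 7 of 10 PAT3 mice, with low values in PAT1 replicate 1 and PAT3 replicate 7. The difference from Control was 1.47-fold in PAT1 (log2 0.56, SE 0.19, adjusted p = 0.0387) and 1.42-fold in PAT3 (log2 0.51, SE 0.17, adjusted p = 0.027). PAT3 and PAT1 differed by -0.05 (95% interval -0.40 to 0.31, adjusted p = 0.906). The PAT1 call was lost without any one of Control replicates 2, 4 and 6 or PAT1 replicates 2, 4, 5 and 6 (log2 difference 0.47 to 0.56, adjusted p 0.0523 to 0.103), and the PAT3 call without any one of Control replicates 2, 4 and 6 (log2 difference 0.42 to 0.48, adjusted p 0.0531 to 0.071). Without the 4 shallow samples the PAT1 difference was 0.80 (adjusted p = 0.00156).

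Without the 4 shallow samples, 5 genes were called in PAT1 (Tgfbr1, Tgfbi, Smad3, Smad5 and Ski), 8 in PAT3 (all but Tgfb1) and 0 between PAT3 and PAT1. That fit held 4 PAT1 mice, replicate 4 being the only male, beside 4 males and 3 females in Control. Calls also rose over the whole panel in the comparisons with Control, to 158 of 547 genes in PAT1 and 252 in PAT3 from 101 and 174, and were 0 between PAT3 and PAT1. With the size factor of the sample, which follows its depth, as a covariate, 4, 8 and 0 of the 9 genes were called, beside 130, 222 and 0 of all 547 genes. Depth and level are plotted for 3 of the genes. Across the 24 mice, after subtraction of group means, Tgfbr1 rose with the log2 size factor (r = 0.78, permutation p = 0.00023, adjusted p = 0.00188; rho = 0.75, permutation p = 0.00054, adjusted p = 0.00373), and r was 0.77 without the 2 mice farthest from the median of Tgfbr1. Smad5 did so less firmly (r = 0.72, permutation p = 0.00112, adjusted p = 0.0048; rho = 0.67, permutation p = 0.0024, adjusted p = 0.0117), with r = 0.48 without PAT3 replicate 7 and PAT1 replicate 1. Tgfb1 and Tgfb3 had r = 0.39 and 0.22 (permutation p = 0.0957 and 0.328, adjusted p = 0.172 and 0.399). Adjustment was over the 90 relations computed, those of each gene with the other 8, with the size factor and with the mean of 5 marker lists.

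**Figure D3:**
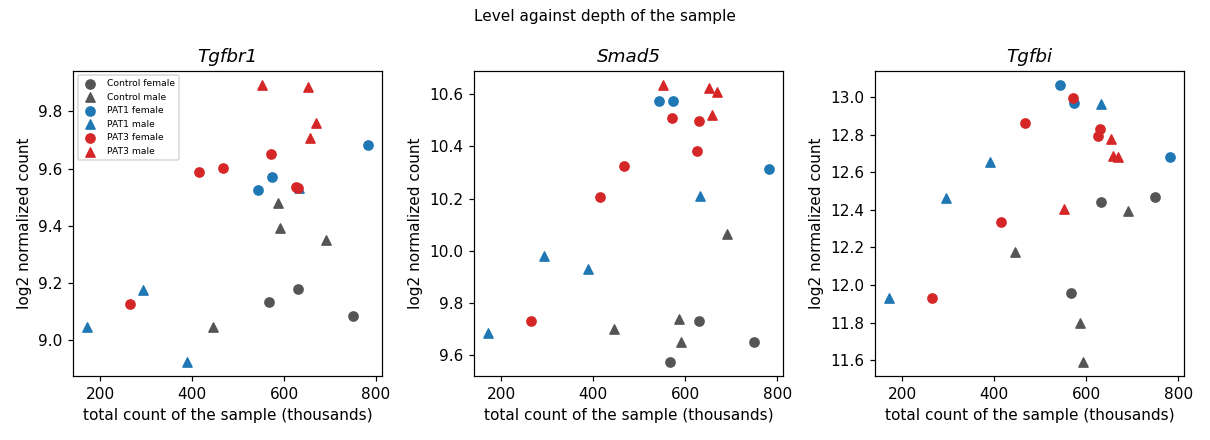
Level of Tgfbr1, Smad5 and Tgfbi (log2 normalized count) against the total count of the sample, with groups by colour and females as circles, males as triangles. The 4 samples under 400000 counts are 3 PAT1 males and 1 PAT3 female and lie low for Tgfbr1 and Smad5. Control mice, all with more than 400000 counts, are also low for Smad5. For Tgfbr1, Control replicates 1, 5, 6 and 7 lie at 9.045 to 9.177, beside 8.922 to 9.176 in the 4 samples under 400000 counts.

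The 9 genes did not vary as 1 block between mice. Within groups, Tgfb2 varied with Tgfb3 (r = 0.81, permutation p = 5e-05, adjusted p = 5e-04; rho = 0.91, permutation p = 1e-05, adjusted p = 0.00015) and with Tgfbr2 (r = 0.78, permutation p = 1e-05, adjusted p = 0.000225; rho = 0.83, permutation p = 1e-05, adjusted p = 0.00015), with r = 0.81 and 0.84 without the 2 most extreme mice. Smad3 varied with Smad5 (r = 0.89, permutation p = 1e-05, adjusted p = 0.000225; rho = 0.82, permutation p = 1e-05, adjusted p = 0.00015) and with Tgfbi (r = 0.80, permutation p = 2e-05, adjusted p = 3e-04; rho = 0.76, permutation p = 6e-05, adjusted p = 0.000771), with r = 0.80 and 0.65 without those mice. Here 1e-05 is the smallest p the permutations can give. Tgfb1 and Smad3 had r = -0.16 (permutation p = 0.496, adjusted p = 0.565) and Tgfb2 and Tgfbi r = 0.09 (permutation p = 0.681, adjusted p = 0.721). All mice share the panel and the normalization, and the size factor varied with several of the same genes.

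**Figure D4:**
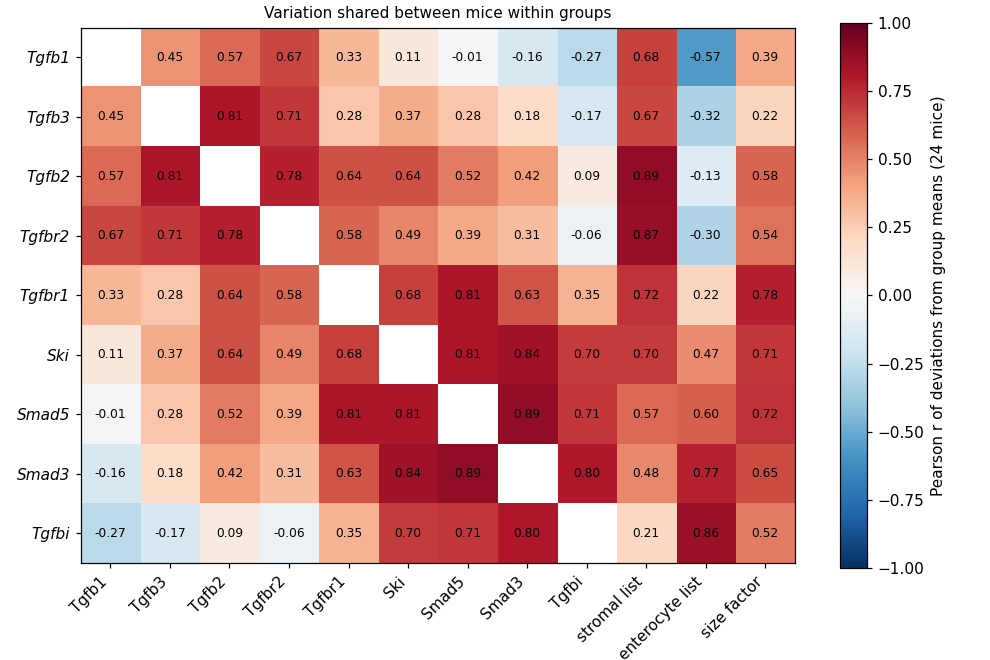
Pearson r over 24 mice of deviations from the group means, between the 9 genes and with the mean of the stromal and endothelial list, the mean of the enterocyte list and the log2 size factor. Tgfb1, Tgfb2, Tgfb3, Tgfbr1, Tgfbr2 and Ski have r = 0.67 to 0.89 with the stromal list, and Tgfbi and Smad3 have r = 0.86 and 0.77 with the enterocyte list.

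In whole tissue, fewer cells of a type and less RNA per cell cannot be told apart, so marker lists of the cell types in the ileum were set beside the 9 genes. Of 8 stromal and endothelial genes in the table, 3 were higher in PAT3 than in Control: Pdgfrb, a receptor of pericytes and fibroblasts (log2 difference 0.73, adjusted p = 0.00615), Cd34, a marker of endothelial and stromal cells (0.64, adjusted p = 0.0126), and Fn1, which encodes fibronectin (0.61, adjusted p = 0.0363). The other 5 were not called, with Cdh5 at 0.72, Pecam1 at 0.36, Thy1 at -0.03, Vcam1 at -0.18 and Icam1 at -0.34. Fn1, which is part of the list mean, is also among the listed genes that TGF-beta is known to help induce. No gene of the list was called in PAT1, and its summed level ranged from 2350 to 3830 normalized counts in Control, from 1870 to 4140 in PAT1 and from 2360 to 5720 in PAT3. The mean of this list varied with Tgfb2 (r = 0.89, permutation p = 1e-05, adjusted p = 0.000225; rho = 0.86, permutation p = 1e-05, adjusted p = 0.00015) and Tgfbr2 (r = 0.87, permutation p = 1e-05, adjusted p = 0.000225; rho = 0.92, permutation p = 1e-05, adjusted p = 0.00015), and r was 0.82 and 0.87 without the 2 most extreme mice. With the list mean as a covariate, Tgfb2 and Tgfb3 differed from Control in PAT3 by 0.10 (adjusted p = 0.577) and 0.30 (adjusted p = 0.192), Tgfbr1 by 0.25 (adjusted p = 0.0812), Ski by 0.29 (adjusted p = 0.12) and Tgfbi by 0.45 (adjusted p = 0.0697). Of these, Tgfb2 was not called without the covariate either. Tgfbr2 at 0.30 (adjusted p = 0.00643), Smad3 at 0.52 (adjusted p = 0.00773) and Smad5 at 0.54 (adjusted p = 0.00256) were called with the covariate too, so that 3 of the 7 PAT3 calls were kept, beside 150 of all 547 genes called in this fit. Between PAT3 and PAT1, Cd34 was also higher in PAT3 (0.73, adjusted p = 0.0401) and the median over the list was 0.50. With the list mean as a covariate, the differences of Tgfb2 and Tgfb3 between PAT3 and PAT1 were 0.29 (adjusted p = 0.324) and 0.40 (adjusted p = 0.318), in a fit that called 0 of all genes in that comparison.

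The enterocyte list (8 of 8 genes in the table) was mixed, with Ccl25 higher in both PAT groups (log2 difference 1.13 in PAT1, adjusted p = 0.000343; 0.81 in PAT3, adjusted p = 0.00154), and Pigr and Ceacam1 lower in both (Pigr -1.32 and -0.90, adjusted p = 0.00321 and 0.0166; Ceacam1 -1.26 and -1.05, adjusted p = 0.00287 and 0.00377). Ccl25 is a chemokine of the small intestinal epithelium and Pigr the receptor that carries IgA across it. Of the other members, Btnl1 was called in PAT1 (0.94, adjusted p = 0.0194) and Abcb1a in PAT3 (1.01, adjusted p = 0.0217). The mean of the list varied with Tgfbi (r = 0.86, permutation p = 2e-05, adjusted p = 3e-04; rho = 0.89, permutation p = 1e-05, adjusted p = 0.00015) and was inversely related to Tgfb1 (r = -0.57, permutation p = 0.00634, adjusted p = 0.0173; rho = -0.56, permutation p = 0.00825, adjusted p = 0.0297), and r was 0.83 and -0.54 without the 2 most extreme mice. With the mean as a covariate, Tgfbi was called in both groups (0.41, adjusted p = 0.00773 in PAT1; 0.42, adjusted p = 0.00222 in PAT3), as were Smad3 and Smad5.

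T cell markers were lower, most of them in PAT3. Of 9 T cell genes, 2 were lower in PAT1 and 7 in PAT3, with a median log2 difference of -0.44 and -1.09, and the summed level ranged from 842 to 1030 in Control, 509 to 1110 in PAT1 and 344 to 612 in PAT3. Of 10 B cell and follicle genes, 1 (Cd79b) was lower in PAT3 and none was called in PAT1, where the summed level ranged up to 5520, beside 1050 in Control and 615 in PAT3. Of 8 macrophage and dendritic cell genes, 1 (Itgam) was lower in both groups. With the mean of the B cell and follicle list as a covariate, 5 of the 9 genes were called in PAT3 (Tgfbr1, Tgfbr2, Tgfbi, Smad3 and Smad5) and 0 between PAT3 and PAT1, beside 154 and 0 of all 547 genes. The part of any of these lists in the differences was not tested beyond these values, and no gene of the 5 marker lists was at 0 in any sample.

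**Figure D5:**
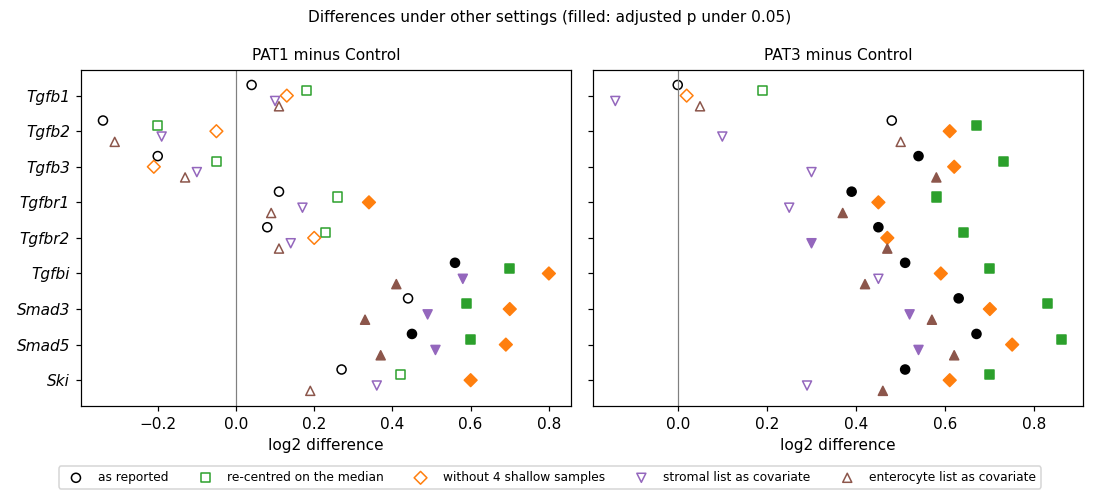
Log2 difference from Control of each gene in PAT1 (left) and PAT3 (right) as reported, after each sample was re-centred on its median, without the 4 samples under 400000 counts, and with the mean of the stromal or enterocyte list as a covariate. Filled points have an adjusted p under 0.05. Smad5 is filled in every setting in both panels and Smad3 in every setting in PAT3, while Tgfb2 in PAT3 is 0.10 with the stromal list as a covariate and 0.48 as reported.

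The remainder of the pathway was sparsely covered by the panel. Of the further listed pathway components, Traf6 and Mapk14, which act in branches of the pathway outside the Smads, were not called in any comparison (log2 differences of 0.12 and 0.13 in PAT1). Of 18 listed genes that TGF-beta is known to help induce, 12 were on the panel. In PAT3, Fn1 was higher and Runx3, a transcription factor of CD8 T cells, was lower (-1.04, adjusted p = 2.25e-05), and the median difference was 0.21. In PAT1, Runx3 was lower (-0.62, adjusted p = 0.0136) and none was higher, with a median of -0.02. Foxp3 and Ahr were not called in either comparison. Foxp3 had a median of only 10 counts per sample. Its difference was -0.37 (SE 0.28) in PAT1 and -0.29 (SE 0.26) in PAT3, so the lack of a call says little about a change. By flow cytometry, the paper reports an increase of Foxp3+ regulatory T cells in PAT3, which is a measure of cells rather than of RNA in whole tissue.

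Of 13 listed genes that TGF-beta is known to restrain, 12 were on the panel. None was called higher, and 4 were called lower in PAT1 and 6 in PAT3, beside 11.2% and 17.9% of all genes. The median was -0.23 and -0.58. Gata3, Il2 and Il4 had positive differences in both groups, none of them called (0.23, 0.46 and 0.47 in PAT1, 0.14, 0.66 and 0.08 in PAT3). Il2 and Il4 were near the floor, with medians of 4.5 and 9 counts per sample. Il2 was at 0 in 6 samples, and the SE of its difference was 0.75 in PAT1 and 0.69 in PAT3, so its direction is not established. The list was chosen with earlier results of these data known, so these counts do not test the pathway. Nos2, inducible nitric oxide synthase, differed from Control by -2.43 in PAT1 and by -3.05 in PAT3 on the log2 scale (adjusted p = 2.26e-06 and 3.11e-09). Gzma and Gzmb, granzymes of cytotoxic lymphocytes, differed from Control by -1.52 and -1.62 in PAT1 (adjusted p = 0.00791 and 0.00117) and by -2.52 and -2.33 in PAT3 (adjusted p = 1.23e-05 and 2.41e-06). Tbx21 was lower in both groups, and Prf1 and Il12rb2 in PAT3. All of the genes called lower except Nos2 are expressed by T and natural killer cells, and the T cell markers described above were lower in the same comparisons. The part of T cell number in these values was not tested.

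Genes whose deviations from the group means were most like those of each of the 9 were found among 426 genes with a median count of at least 20, by Pearson r over 24 mice, as a description. Tgfb2 was most like Zeb1 (r = 0.90), Cd44 (0.87) and Fn1 (0.86), and Tgfbr2 like Csf1 (0.87), C1s (0.86) and Zeb1 (0.85). Tgfb3 was like Ccrl1 (0.85) and Tlr4 (0.81), and Tgfb1 like Icam1 (0.80), Cybb (0.80) and Fyn (0.77). Tgfbi was most like Cx3cl1 (0.91), Maf (0.91) and C2 (0.90). Smad3 was most like App (0.95), Stat6 (0.94) and Stat3 (0.94), Smad5 like Itgb1 (0.94), Tnfrsf11a (0.91) and Casp2 (0.91), Ski like Igf2r (0.94), Abl1 (0.93) and Abcf1 (0.90), and Tgfbr1 like Ahr (0.89), Atm (0.88) and Tcf4 (0.88). Among these companions, only Ccrl1, Stat6, Abl1 and Fn1 were called in PAT3, and only Tlr4 in PAT1.

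None of the 9 genes passed the test between females and males (limma, treatment and sex in 1 fit), beside 2 of all 547 genes, and the smallest unadjusted p was 0.0655, for Ski. The response to treatment did not pass the threshold for a difference between sexes in any of the 9 (beside 1 of all genes), although 4 had an unadjusted p under 0.05: Smad5 (p = 0.00425, adjusted p = 0.168), Tgfbr1 (p = 0.00719, adjusted p = 0.168), Smad3 (p = 0.016, adjusted p = 0.195) and Ski (p = 0.0441, adjusted p = 0.265). How many of all 547 genes had an unadjusted p under 0.05 was not counted, so these 4 cannot be called particular to the pathway. For Smad5 the difference from Control was 0.83 in females and 0.16 in males in PAT1, and 0.62 and 0.81 in PAT3. For Tgfbr1 it was 0.46 and -0.15 in PAT1 and 0.37 and 0.50 in PAT3. Of the 4 PAT1 males, 3 were shallow samples, and the parts of sex and depth in these PAT1 values were not tested. In fits on females alone no gene of the 9 was called in any comparison (0 of 9 in PAT3, with 57 of all genes called), and in fits on males alone 3 were called in PAT3 (Smad3, Smad5 and Ski), 0 in PAT1 and 7 between PAT3 and PAT1, beside 122, 57 and 129 of all 547 genes.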

How the data were processed

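RNA of the terminal ileum of 24 mice was counted on the NanoString nCounter mouse immunology panel. The labels give TRIzol extraction with an RNeasy column, and the methods a miRNeasy kit. The authors normalized the counts with DESeq2, by 1 size factor per sample, and deposited log2 values. No genome build was named and background subtraction was not stated. Groups and sex follow the sample labels. A legend of the study places 1 mouse differently between PAT1 and PAT3. Replicate numbers follow sample order.

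Counts were recovered from the log2 values (100% whole within 0.01 counts; 19 zero values were listed as 0). Each of 547 genes was tested with limma 3.58.1 (R 4.3.3) on the deposited log2 values in 1 fit over 24 mice without covariates, with Benjamini-Hochberg adjustment over all genes and a threshold of 0.05. No filter or pseudocount was used. Correlations used 100000 permutations. Mice are treated as independent, so p-values take no account of litter or cage. The script was tested on simulated data. Named genes were the 9, genes of the lists called against Control, and the 3 most correlated genes of each. A few of these are not reported here. The 9 genes and the lists were chosen with earlier results of these data known. Alternatives included voom, TMM, quantile normalization, re-centring, covariates, the methods' test (aov and TukeyHSD), and leaving out samples. The counting error is 1 over the square root of the median count and covers counting only.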

Additional observations from a re-analysis of the deposited data

Results flagged for a closer look

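The 27 groups of values (9 genes in 3 groups) are not independent, since the genes share mice and several varied together. Chance would give about 1 in 20 among independent groups, so the count below cannot be read against that rate. Of the 27 groups, 4 held a sample far from the others of its group. Of these, 3 were PAT3 replicate 7, a shallow sample of 265500 counts: Tgfbr1 at 9.13, Smad5 at 9.73 and Ski at 8.54 (log2 normalized counts) were each the lowest value in PAT3. The fourth was Smad5 in Control replicate 3, the highest Control value at 10.07, in a sample of 690827 counts. Depth moves with the 3 low values, and its part in them was not tested.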

How the results depend on the processing

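Each of the 27 log2 differences of the 9 genes was recomputed under 43 alternatives, of which 3 were chosen after seeing the data. Of these 1161 values, 969 kept their direction and side of the threshold, 110 fell below it, 43 passed it and 39 changed sign without being called in either setting. Smad3 and Smad5 in PAT3 passed the threshold in 42 of 43 alternatives and Tgfbr2 in 41, including all 24 that left out 1 mouse. The F-test called 7 genes (189 of all 547), and 0 with females alone (37 of all) and 4 with the B cell and follicle, the stromal, or the stromal and enterocyte list means as covariates (139, 139 and 187). PAT1 against Control called 2 (101 of all), and 0 by the methods' test, with only the 2 groups compared, with males alone and with females alone (73, 94, 57 and 23 of all), 4 with the size factor as a covariate (130), and 5 without the 4 samples under 400000 counts (158). PAT3 against Control called 7 (174 of all 547 genes), and 4 by the methods' test (138 of all), 3 with males alone (122), 0 with females alone (57), and 3 and 4 with the stromal or stromal and enterocyte list means as covariates (150 and 200). PAT3 against PAT1 called 2 (23 of all), and 0, with 0 of all genes, by the methods' test, with only the 2 groups compared, with females alone, with the size factor or the B cell, stromal, or stromal and enterocyte list means as covariates, or without the shallow samples, and 7 with males alone (129 of all). Leaving out 1 mouse gave 5 to 8 genes by F-test, 0 to 3 in PAT1, 4 to 8 in PAT3 (4 without Control replicate 1 or 2) and 0 to 3 between PAT3 and PAT1. The cause of these changes was not tested, other than that fits on 1 sex or without samples have fewer mice. Re-centring on the sample median raised the median difference over all genes by 0.14 in PAT1 and 0.19 in PAT3. It called 8, 3, 8 and 3 of the 9 genes in the 4 tests, beside 244, 103, 230 and 57 of all 547 genes. Scaling on reference genes was not run, as 0 of the 14 listed were in the table. No sex difference was called in the Control mice alone. No paired analysis was possible because the labels give no replicate numbers shared between groups. Counting error was largest for Tgfb2, which had 13 counts in its lowest sample.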
